A study of Mus musculus with 8 samples.

Results

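The mRNAs of 10 secreted factors that have been ascribed to tumour-promoting neutrophils were followed here: Vegfa, Prok2, Pdgfb, Thbs1, Spp1, Tgfb1, Tgfbi, Osm, Hbegf and Areg. They were chosen by name as angiogenic, TGF-beta and EGF-family factors, and the 10 genes were found, with 1 row each, among the 25572 gene identifiers of the deposited count table. The libraries are labelled as neutrophils that had infiltrated PyMT-N tumours carried by C57/B6 mice and had been sorted by flow cytometry on surface ICAM1, the adhesion molecule also called CD54. There were 4 libraries of the ICAM1-high fraction, CD54-positive in the sample titles, and 4 of the ICAM1-low fraction, CD54-negative, numbered 1, 2, 3 and 5 in both groups, and each was made from 150 pg of total RNA with a kit for single-cell amounts. No treatment, time point, age, sex or genetic change of the mice is given in the sources used here, nor what PyMT-N stands for or whether animals were pooled. The labels do not tie the libraries to separate mice, and all p-values therefore describe library-to-library spread, some of which may be technical.

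Tumours grow with the help of proteins that surrounding cells release. VEGF-A, prokineticin 2 (the product of Prok2) and PDGF-B act on blood vessels: VEGF-A and prokineticin 2 drive endothelial cells, and PDGF-B recruits the pericytes and fibroblasts that carry its receptor. TGF-beta 1 is released in a latent form, restrains many immune cells and activates fibroblasts, while thrombospondin-1 (Thbs1), osteopontin (Spp1) and the TGF-beta-induced protein (Tgfbi) are matrix-associated proteins that bind integrins and other surface receptors. Oncostatin M (Osm) signals through receptors that contain gp130, and HB-EGF (Hbegf) and amphiregulin (Areg) are shed from the cell surface to activate the EGF receptor.

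Library totals ran from 15940328 to 21825096 estimated counts, and levels are given as CPM, counts scaled to the TMM-adjusted library size. A floor of 3 counts, which allows for counting error alone, equalled 0.121 to 0.263 CPM depending on the library. The mRNA of the sort gene Icam1 stood at 48.2, 58.4, 42.4 and 122 CPM in CD54-positive replicates 1, 2, 3 and 5, and at 18.7, 9.25 and 4.31 CPM in CD54-negative replicates 1, 2 and 3. The library labelled CD54-negative replicate 5 held 138 CPM, above every CD54-positive library, and its effect on the factors is given where leaving it out moved a fold change by more than 1.5 times. Icam1 itself did not pass (log2 fold change 0.67; edgeR adjusted p = 0.754), but did without that library (2.64; edgeR adjusted p = 0.0483). Markers of other cells moved with the sort: the summed level of 12 neutrophil markers was 5270.3 to 27601 CPM in CD54-negative and 886 to 2883 CPM in CD54-positive libraries, and that of 12 macrophage markers was 808 to 1167 CPM against 5664 to 16242 CPM. Of the neutrophil markers 7 fell and none rose, and of the macrophage markers 9 rose and none fell (edgeR adjusted p under 0.05); no marker of either list was at 0 in any library, although Ly6g was at 0.095 CPM, under the floor, in CD54-positive replicate 1. In every CD54-positive library the macrophage sum exceeded the neutrophil sum, which goes against the neutrophil label of these libraries. The sums are of different genes, however, so they do not give the share of each cell type. The 9 T and NK cell markers also stood apart, at 2.11 to 42.5 CPM in CD54-negative and 76.4 to 315 CPM in CD54-positive libraries, with 1 of 7 tested called higher (Cd4) and all 7 positive; the 5 B cell markers summed to 2.08 to 144 and 38.1 to 358 CPM, all positive and none called by edgeR, with 1 higher at an unadjusted p under 0.05. The 7 mast cell, basophil and eosinophil markers with a row summed to 93.2 to 202 CPM in CD54-negative and 16.6 to 77.7 CPM in CD54-positive libraries. All 3 tested were negative and none was called by edgeR. Kit had means of 75.3 and 16 CPM (edgeR adjusted p = 0.0939). In bulk libraries such as these, fewer cells of a type and less RNA per cell cannot be told apart.

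Among the 10 factors, Pdgfb was the one that rose in CD54-positive libraries, about 17.3-fold, and none fell past the threshold. Prok2 was 10.6-fold lower but narrowly missed the threshold, and the other 8 differed between the groups by 1.35-fold to 3.45-fold with adjusted p from 0.206 to 0.726. The test was edgeR's quasi-likelihood test over 13575 genes with Benjamini-Hochberg adjustment and a threshold of 0.05, by which 1.22% of all genes tested were higher and 0.273% were lower. At an unadjusted p under 0.05, 1 factor was higher and 4 were lower, beside 7.96% of all genes higher and 8.96% lower, the shares against which the unadjusted counts for the gene lists below are to be read. DESeq2 and limma-voom each called 1 factor higher and 1 lower; over all genes DESeq2 called 4.53% higher and 5.03% lower, and limma-voom 3.54% and 2.77%. Of all tested genes, the groups did not overlap in CPM, with CD54-positive higher, for 7.51%, and with CD54-positive lower for 3.89%; among the factors this held for Pdgfb and Prok2, respectively. Log2 fold changes were positive for 4 factors and negative for 6, with a median of -0.90 beside -0.07 over all genes tested.

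**Figure D1:**
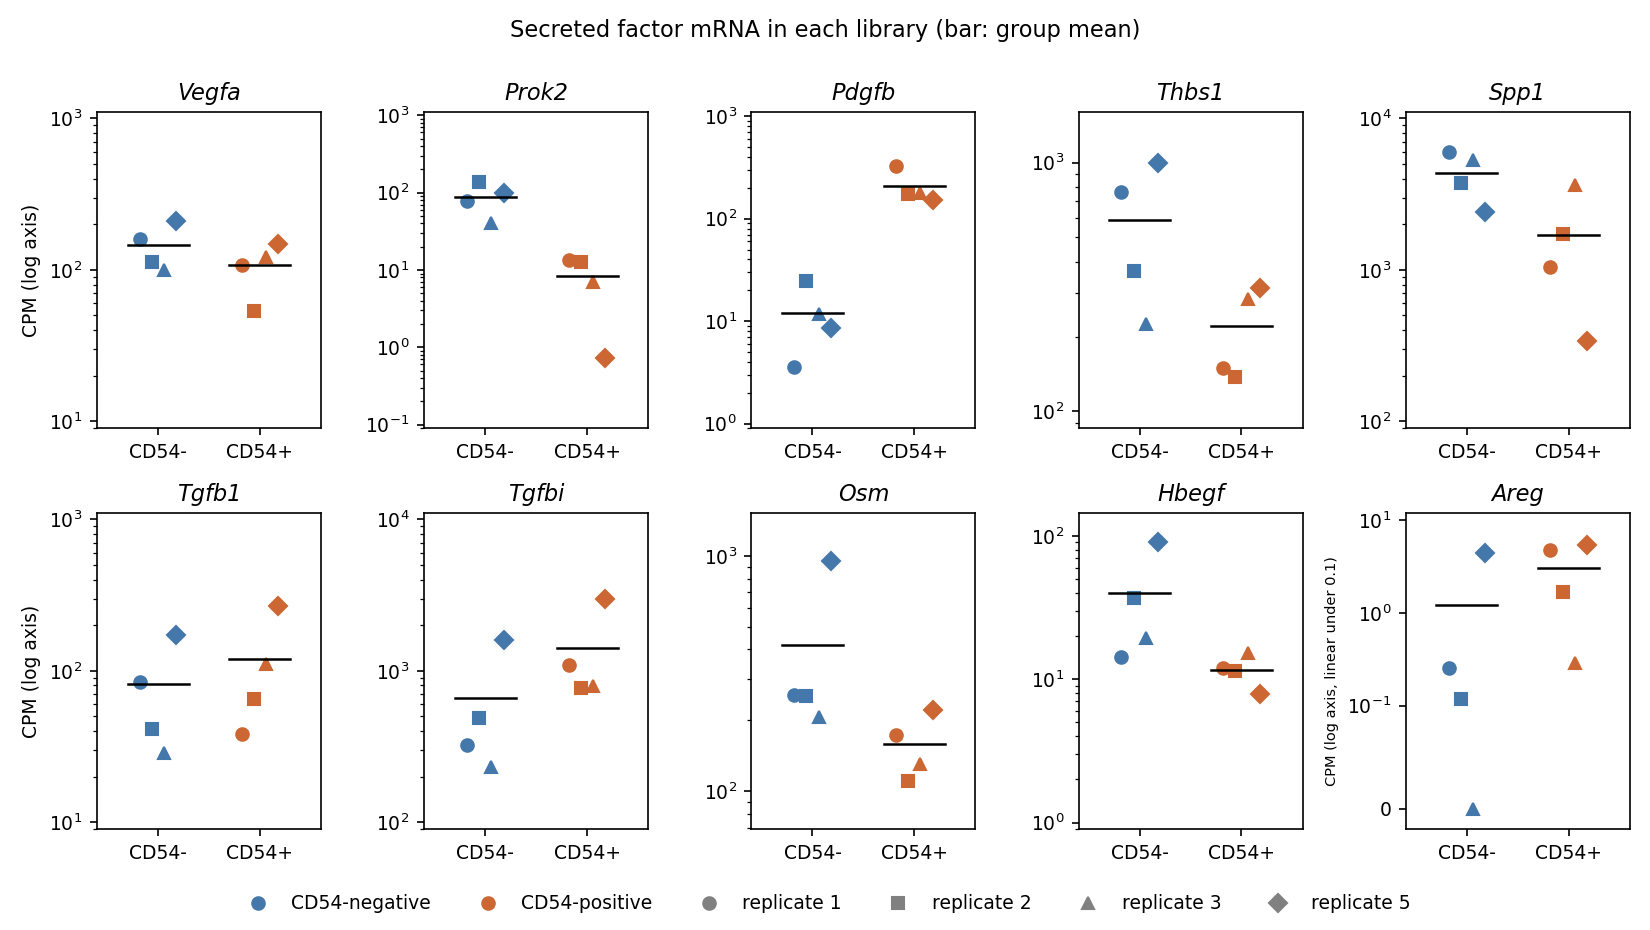
Level of each of the 10 secreted factors in every library, as CPM on a log axis (linear under 0.1 for Areg), with CD54-negative libraries on the left and CD54-positive on the right of each panel; symbols mark the replicate number and bars the group mean. The groups are apart for Pdgfb (3.58 to 24.4 against 154 to 325 CPM) and Prok2 (40.6 to 139 against 0.718 to 13.3 CPM) and overlap in the other 8 panels.

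**Figure D2:**
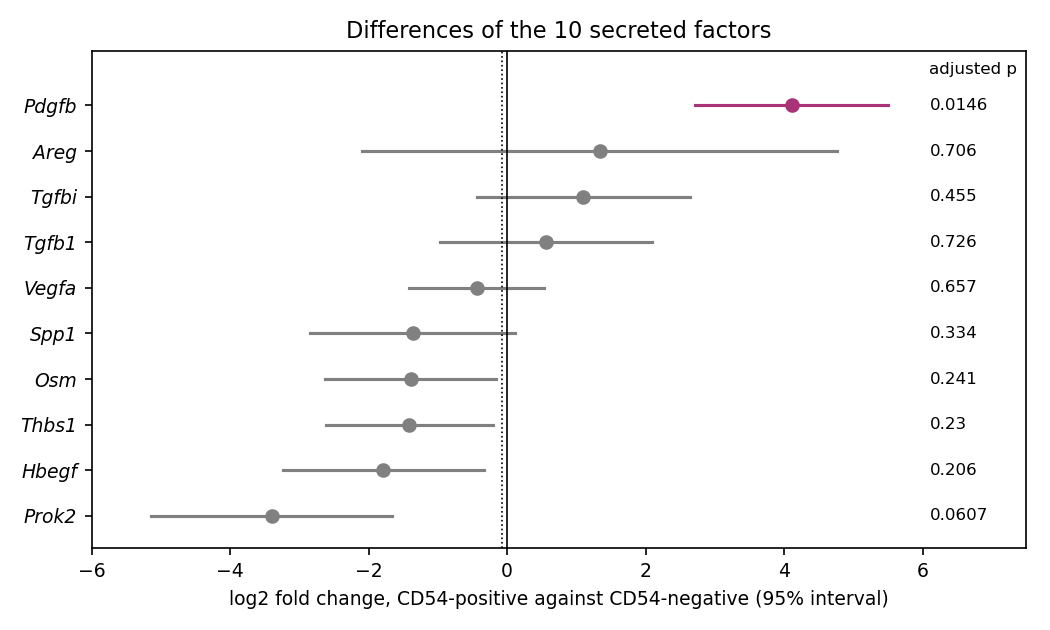
Log2 fold change of each factor, CD54-positive against CD54-negative, with its 95% interval from the edgeR fit (n = 4 against 4) and its adjusted p at the right; the dotted line marks the median of all genes tested. The interval of Pdgfb runs from 2.72 to 5.50, and that of Prok2 from -5.15 to -1.66.

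Pdgfb (ENSMUSG00000000489), which encodes the B chain of platelet-derived growth factor, was at 3.58, 24.4, 11.7 and 8.51 CPM in CD54-negative replicates 1, 2, 3 and 5. It was at 325, 175, 178 and 154 CPM in CD54-positive replicates 1, 2, 3 and 5. Every CD54-positive library was thus far above every CD54-negative library, and CD54-positive replicate 1 stood highest. The group means were 12 ± 8.87 and 208 ± 78.5 CPM (SD, n = 4). On the log2 scale Pdgfb rose by 4.11 with an SE of 0.64 (edgeR adjusted p = 0.0146). DESeq2 and limma-voom also called Pdgfb (adjusted p = 2.3e-08 and 0.00353), as did the edgeR fit without CD54-negative replicate 5 (log2 fold change 3.98; adjusted p = 0.017). The call was lost without CD54-negative replicate 1 (3.80; edgeR adjusted p = 0.0521) and without CD54-positive replicate 1 (3.79; edgeR adjusted p = 0.0538).

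The rise of Pdgfb went with that of macrophage and antigen-presentation genes. Of 142 tested genes on the pathway and marker lists used here, the closest in pattern to Pdgfb were H2-Eb1, a chain of MHC class II, and C1qb, a complement gene of macrophages. Their centred log2 CPM profiles over the 8 libraries differed from that of Pdgfb by a root mean square of 0.65 and 0.72, beside a median of 2.60 over the 142 genes. This measure includes the difference between the groups, so it favours listed genes with a similar log2 fold change (3.84 for H2-Eb1 and 4.27 for C1qb). It does not show an association beyond that difference. Per 1000 CPM of summed macrophage markers, Pdgfb was at 4.44, 29.3, 10.9 and 7.29 CPM in CD54-negative replicates 1, 2, 3 and 5, and at 36.9, 31.0, 30.7 and 9.49 CPM in the CD54-positive libraries in the same order. On that scale the groups overlapped only in CD54-positive replicate 5, and the medians were 9.11 and 30.8 CPM. Per 1000 CPM of summed neutrophil markers, Pdgfb ran from 0.308 to 2.22 CPM in CD54-negative and from 60.9 to 203 CPM in CD54-positive libraries. The neutrophil sums themselves did not overlap between the groups, which pulls the groups apart on this scale. Tgfb1, Tgfbi, Hbegf and Areg were also higher without overlap on it, Hbegf at 1.33 to 3.67 against 3.95 to 11.8 CPM. The part of macrophage content in the difference was not tested. H2-Eb1 was also on the list of 9 dendritic cell markers. They summed to 254 to 722 CPM in CD54-negative and 3479.7 to 7334 CPM in CD54-positive libraries. Most of that sum came from H2-Aa, H2-Ab1, H2-Eb1 and Cd74, with CD54-positive means of 1115, 320.5, 904 and 2166 CPM. Itgax had a mean of 282 CPM there, and Flt3, Xcr1, Clec9a and Zbtb46 had means of 2.31, 5.4, 1.28 and 6.74 CPM. The part of dendritic cells in the result was not tested. Of 4 platelet markers with a row, Pf4, which macrophages can also express, rose, from a mean of 6.03 to 58.6 CPM, and made up nearly all of their summed level of 2.98 to 14.2 CPM in CD54-negative and 48.5 to 71.8 CPM in CD54-positive libraries. The other 3 stayed low in both groups, with means of 1.8 and 1.79 CPM for Itga2b, 0.504 and 0.623 CPM for Ppbp, and 0.187 and 0.0845 CPM for Gp1ba. The 6 endothelial markers summed to 1.6 to 26.8 CPM in CD54-negative and 20.4 to 67.5 CPM in CD54-positive libraries. By edgeR, 2 of 4 tested were positive and 2 negative, none was called, and 1 was higher at an unadjusted p under 0.05. Means were 0.812 and 15.8 CPM for Kdr, 7.86 and 24.9 for Pecam1, 4.2 and 1.63 for Cdh5, and 0.954 and 0.91 for Vwf. The part of endothelial cells in the result was not tested.

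The rest of the PDGF system did not change past the threshold. None of 5 tested ligand and receptor genes, the other ligands Pdgfa, Pdgfc and Pdgfd and the receptors Pdgfra and Pdgfrb, was called by edgeR, DESeq2 or limma-voom, with 1 lower at an unadjusted p under 0.05. Pdgfa, which encodes the A chain, was at 15.2 ± 2.96 CPM in CD54-negative and 22.8 ± 12.8 CPM in CD54-positive libraries (mean ± SD of 4; log2 fold change 0.59, SE 0.57; edgeR adjusted p = 0.635). Pdgfra, a receptor of fibroblasts, was at 475 ± 279 and 192 ± 167 CPM (-1.30 ± 0.78; edgeR adjusted p = 0.424).

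**Figure D3:**
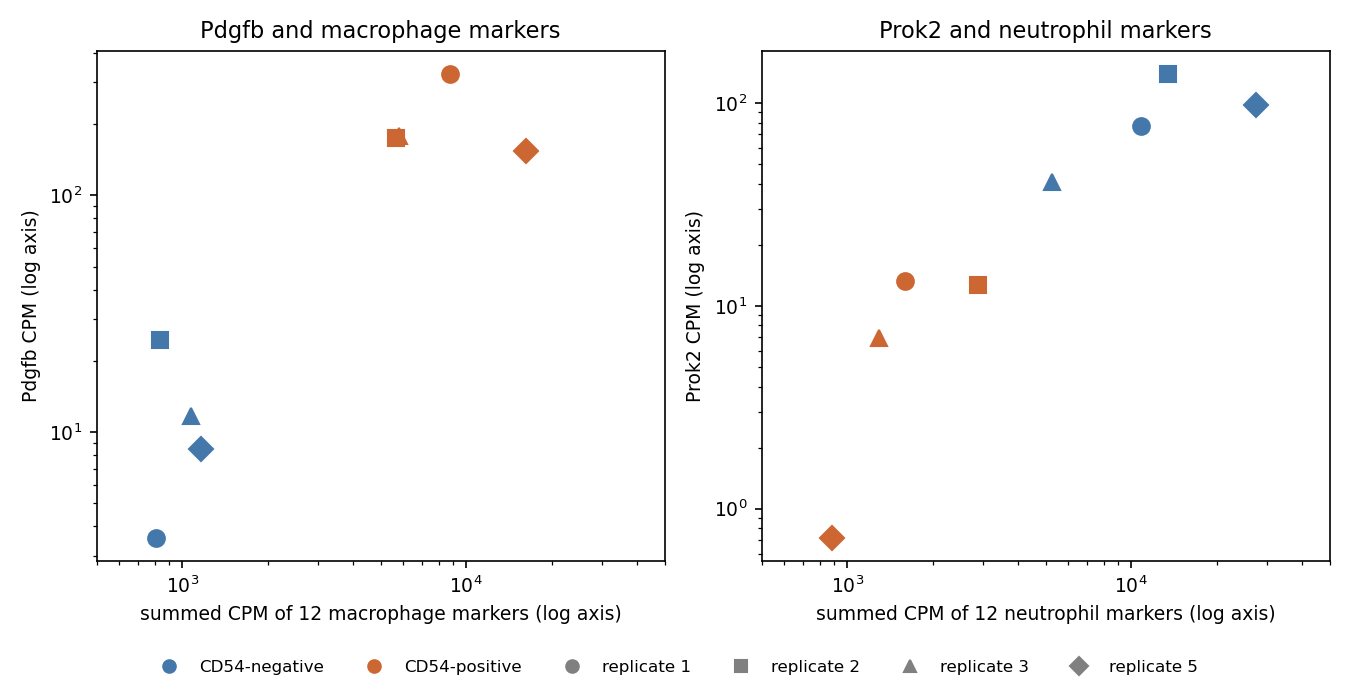
Left, Pdgfb CPM against the summed CPM of 12 macrophage markers in each library; right, Prok2 CPM against the summed CPM of 12 neutrophil markers. All axes are logarithmic, colours give the group and symbols the replicate number. CD54-positive libraries lie at the upper right for Pdgfb (5664 to 16242 CPM of macrophage markers) and at the lower left for Prok2 (886 to 2883 CPM of neutrophil markers).

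Prok2 (ENSMUSG00000030069), also known as Bv8 and a product of myeloid cells that mobilises them and acts on vessels, was the factor with the most negative difference. Its level was 77.2, 139, 40.6 and 97.5 CPM in CD54-negative replicates 1, 2, 3 and 5. In the CD54-positive libraries it was 13.3, 12.6, 6.90 and 0.718 CPM in the same order. The lowest CD54-negative library was above the highest CD54-positive library, and CD54-positive replicate 5 stood far under the other 3. The means were 88.6 ± 41.1 and 8.37 ± 5.85 CPM (SD, n = 4). On the log2 scale the difference was -3.40 with an SE of 0.80 (edgeR adjusted p = 0.0607). Whether Prok2 passed depended on the tool, the filter, the design and the libraries used. Its adjusted p was 0.000313 with DESeq2 and 0.0163 with limma-voom. In edgeR it was 0.012 without a filter on low counts, 0.0433 with a stricter filter and 0.0299 with the replicate number as a block. Also by edgeR, it was 0.0495 without CD54-negative replicate 5 and 0.0355 without both libraries numbered 5. Over all 17 alternatives its log2 fold change lay between -3.70 and -2.96, and its adjusted p between 0.000313 and 0.145.

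The promoter of Prok2 is shown because this gene had the steepest negative difference of the factors with an entry in the RefSeq promoter table. The 250 bases before its start, at chr6:99726393-99726642 on the minus strand of GRCm38.p6 (a build other than that of the counts), read as follows, with matches to the 4 motifs searched in capitals.
Prok2: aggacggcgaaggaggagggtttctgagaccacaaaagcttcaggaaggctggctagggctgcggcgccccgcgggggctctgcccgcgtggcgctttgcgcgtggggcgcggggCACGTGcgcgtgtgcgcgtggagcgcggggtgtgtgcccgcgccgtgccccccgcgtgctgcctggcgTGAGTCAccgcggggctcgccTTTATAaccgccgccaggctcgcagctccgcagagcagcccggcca
The motifs were searched on both strands: the TATA box as TATAAA, the SP1 box as GGGCGG, the AP-1 site as TGANTCA and the core of the hypoxia response element as ACGTG. The window held a TATA box 46 bases before the start, on the reverse strand, an AP-1 match at 67 bases, and an ACGTG on each strand at 135 and 134 bases, which overlap in 1 palindrome, CACGTG; it held no SP1 match. Of all 32851 promoter windows of this length, 12.4% held the TATA motif, 6.75% the AP-1 motif, 16.6% ACGTG and 32.7% the SP1 motif. Of the 10 factors 6 had an entry in that table, and the AP-1 motif was found in the Prok2 window and in none of the windows of Areg, Spp1, Tgfb1, Tgfbi and Vegfa. These matches describe the letters of the window and show no binding.

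The difference in Prok2 ran alongside neutrophil granule and surface genes. The listed genes closest to Prok2 in pattern were Cd177, a surface glycoprotein of neutrophils, and Ngp, a granule protein gene (root mean square difference 0.57 and 0.77 in log2 CPM, beside a median of 2.56 over the 142 genes). Here, too, the measure includes the group difference, and the log2 fold changes of Cd177 and Ngp, -3.43 and -3.99, were near that of Prok2. Per 1000 CPM of summed neutrophil markers, Prok2 was at 7.11, 10.3, 7.70 and 3.53 CPM in CD54-negative replicates 1, 2, 3 and 5, and at 8.33, 4.36, 5.33 and 0.81 CPM in the CD54-positive libraries in the same order. On that scale, too, the groups overlapped, with medians of 7.41 and 4.85 CPM. Per 1000 CPM of summed macrophage markers, Prok2 ran from 37.9 to 167 CPM in CD54-negative and from 0.0442 to 2.22 CPM in CD54-positive libraries. The macrophage sums themselves did not overlap between the groups. All factors but Pdgfb and Areg were lower in CD54-positive libraries without overlap on this scale. The part of neutrophil content in the difference was not tested. The prokineticin receptor genes Prokr1 and Prokr2 did not pass the filter on low counts, at 0 to 2.95 and 0 to 0.877 CPM over the 8 libraries.

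Vegfa (ENSMUSG00000023951), the main driver of new vessel growth, did not differ past the threshold. It was at 159, 112, 99.4 and 211 CPM in CD54-negative replicates 1, 2, 3 and 5, and at 107, 53.3, 121 and 148 CPM in the CD54-positive libraries in the same order. The groups overlapped: 3 of the 4 CD54-positive libraries lay above the lowest CD54-negative library, and CD54-positive replicate 2 lay below all others. The log2 fold change was -0.44 ± 0.45 (SE, n = 4 against 4; edgeR adjusted p = 0.657), with a 95% interval from -1.42 to 0.54 that leaves room for a change of either sign.

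Around VEGF-A, a co-receptor rose while the other ligands did not pass. Nrp2, which encodes neuropilin-2, a co-receptor for VEGF ligands and semaphorins, was at 17.5, 7.83, 20.6 and 4.74 CPM in CD54-negative and at 94.8, 112, 102 and 111 CPM in CD54-positive replicates 1, 2, 3 and 5. The CD54-positive libraries lay close together and all above the CD54-negative ones, a rise of 3.05 on the log2 scale with an SE of 0.55 (edgeR adjusted p = 0.0246). Nrp2 lost the call in 6 of the 8 fits that left out a library (log2 fold change 2.78 to 3.38; edgeR adjusted p up to 0.0824). Its relative Nrp1 was at 48.2 ± 4.42 and 154 ± 38.0 CPM (mean ± SD of 4 libraries; log2 fold change 1.68, SE 0.39; edgeR adjusted p = 0.0582), and DESeq2 and limma-voom called both neuropilins. Of 4 tested VEGF receptor and co-receptor genes, Nrp2 was the 1 that edgeR called, and all 4 were positive (median 2.36). At an unadjusted edgeR p under 0.05, 3 were higher: the neuropilins and the receptor gene Kdr, also on the endothelial list. Kdr was at 0.812 ± 1.51 and 15.8 ± 15.7 CPM (log2 fold change 4.25, SE 1.84, edgeR adjusted p = 0.272), and its groups overlapped. Of 9 other VEGF and angiogenic ligands none was called by edgeR or limma-voom, 2 were higher at an unadjusted p under 0.05, and DESeq2 called Angpt2, an antagonist ligand of the endothelial receptor TIE2, as higher. Vegfd, the ligand of this list with the highest length-scaled level, was at 37.7 ± 28.9 and 18.8 ± 21.2 CPM (-1 ± 0.85; edgeR adjusted p = 0.585), and Vegfb was at 1.38 ± 1.6 and 8.92 ± 2.38 CPM (2.68 ± 1.11; edgeR adjusted p = 0.252).

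The integrin-binding proteins Thbs1 and Spp1 had lower means in CD54-positive libraries but did not pass the test. Thbs1 (ENSMUSG00000040152), a matricellular protein that restrains vessel growth and can release TGF-beta from its latent complex, was at 760.3, 367, 224 and 997 CPM in CD54-negative replicates 1, 2, 3 and 5. It was at 149, 137, 284 and 314 CPM in CD54-positive replicates 1, 2, 3 and 5. CD54-negative replicate 3 lay within the CD54-positive range, and the other 3 lay above it. The log2 fold change was -1.41 ± 0.55 (SE, n = 4 against 4; unadjusted p = 0.0263 and adjusted p = 0.23 by edgeR).

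Spp1 (ENSMUSG00000029304), osteopontin, was at 5974, 3725, 5299 and 2409 CPM in CD54-negative replicates 1, 2, 3 and 5. In the CD54-positive libraries it was at 1041, 1732, 3652 and 339 CPM in the same order. The spread within the CD54-positive group, from 339 to 3652 CPM, was wider than the difference of the means, 4352 ± 1602 against 1691 ± 1425 CPM (SD, n = 4). Spp1 differed by -1.36 on the log2 scale with an SE of 0.68 (edgeR adjusted p = 0.334), and by -2.06 without CD54-positive replicate 3 (edgeR adjusted p = 0.186).

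Thbs2, the closest relative of Thbs1, fell: it was at 186, 198, 190.3 and 96.0 CPM in CD54-negative and at 15.4, 22.4, 45.6 and 21.8 CPM in CD54-positive replicates 1, 2, 3 and 5. The groups did not overlap, and Thbs2 fell by 2.67 on the log2 scale with an SE of 0.49 (edgeR adjusted p = 0.0264). Thbs2 lost the call in 5 of the 8 fits that left out a library (-3.07 to -2.50; edgeR adjusted p up to 0.107). It was the 1 gene that edgeR called among 7 tested matricellular relatives, all of them negative (median -2.39), with 4 lower at an unadjusted p under 0.05. DESeq2 called Thbs2, Sparc, Ccn1 and Ccn2 lower but gave no adjusted p for Tnc, and limma-voom called Thbs2, Sparc and Ccn1 lower. Of these, Sparc, a collagen-binding matrix protein, was at 1681 ± 1167 and 321 ± 29.2 CPM (-2.39 ± 0.63; adjusted p = 0.0884 by edgeR, 0.0027 by DESeq2 and 0.0124 by limma-voom) and Postn, periostin, at 618 ± 282 and 449 ± 411 CPM (-0.46 ± 0.63; edgeR adjusted p = 0.754). Beside these values, 8 fibroblast markers summed to 1606 to 2676 CPM in CD54-negative and 462 to 1935 CPM in CD54-positive libraries, 7 of the 8 had negative log2 fold changes, none was called by edgeR and 1 was lower at an unadjusted p under 0.05; their part in the lower matrix genes was not tested.

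Among 9 tested receptors of thrombospondin-1, osteopontin and TGFBI, none was called by edgeR, 3 were higher and 2 lower at an unadjusted p under 0.05, and the median was 0.07. DESeq2 called higher Itga9, the alpha-9 integrin chain that binds osteopontin, and limma-voom called Itga9 and Itgb5. Itgb5, the beta-5 integrin chain, was at 404 ± 232 and 1176 ± 672 CPM (mean ± SD of 4 libraries; log2 fold change 1.54, SE 0.55; edgeR adjusted p = 0.195). Cd44, a receptor of hyaluronan and osteopontin, was at 1035 ± 959 and 411 ± 114 CPM (-1.33 ± 0.60; edgeR adjusted p = 0.291), and its log2 fold change was -0.45 without CD54-negative replicate 5.

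The TGF-beta factors Tgfb1 and Tgfbi had positive differences within the replicate spread. Tgfb1 (ENSMUSG00000002603), the ligand, was at 84.3, 41.5, 28.6 and 172 CPM in CD54-negative replicates 1, 2, 3 and 5 and at 38.4, 64.9, 110.4 and 267 CPM in the CD54-positive libraries in the same order. The 2 libraries numbered 5 were the highest of their groups. For Tgfb1 the log2 fold change was 0.56 ± 0.70 (SE, n = 4 against 4; edgeR adjusted p = 0.726), and it turned to -0.16 without CD54-positive replicate 5 and was 1.21 without CD54-negative replicate 5.

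Tgfbi (ENSMUSG00000035493), a matrix protein that TGF-beta induces in many cells, was at 323, 490.1, 231 and 1595 CPM in CD54-negative replicates 1, 2, 3 and 5. It was at 1090.2, 774, 790.1 and 2987 CPM in CD54-positive replicates 1, 2, 3 and 5. Apart from CD54-negative replicate 5, every CD54-negative library was below every CD54-positive library. Its log2 fold change was 1.1 with an SE of 0.7 (edgeR adjusted p = 0.455), and 2.01 without CD54-negative replicate 5, which was not past the threshold either (edgeR adjusted p = 0.0743). Without CD54-positive replicate 5, the highest library, it was 0.47 (edgeR adjusted p = 0.792).

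Genes that carry or read the TGF-beta signal showed no call in the main test. None of 15 tested TGF-beta ligands, receptors and carriers was called by edgeR, with 1 higher and 2 lower at an unadjusted p under 0.05 (median -0.44); DESeq2 and limma-voom called the type I receptor Tgfbr1 higher and the latency-binding protein Ltbp3 lower. Itgav, the integrin chain that activates latent TGF-beta, was at 276 ± 117 and 203 ± 39.7 CPM (mean ± SD of 4 libraries; log2 fold change -0.44, SE 0.43; edgeR adjusted p = 0.641), and the type II receptor Tgfbr2 at 483 ± 124 and 495 ± 147 CPM (0.03 ± 0.42; edgeR adjusted p = 0.975). Of 14 SMAD signalling and target genes none was called by edgeR, 1 was higher and 3 were lower at an unadjusted p under 0.05 (median -0.45), and DESeq2 and limma-voom called Id2 higher and Smad3, Id1 and Id3 lower. Id2, an inhibitor of helix-loop-helix transcription factors, was at 135 ± 14.5 and 302 ± 35.7 CPM (1.16 ± 0.36; edgeR adjusted p = 0.143), and Smad4, the common SMAD, at 619 ± 262 and 431 ± 249.8 CPM (-0.52 ± 0.54; edgeR adjusted p = 0.663).

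Osm (ENSMUSG00000058755), a gp130 cytokine that neutrophils and macrophages make, was at 256, 253, 206 and 950.1 CPM in CD54-negative replicates 1, 2, 3 and 5. It was at 173, 110.3, 130.4 and 221 CPM in CD54-positive replicates 1, 2, 3 and 5. The groups overlapped only in that CD54-positive replicate 5 exceeded CD54-negative replicate 3, and CD54-negative replicate 5 stood far above the rest. The log2 fold change was -1.39 ± 0.56 (SE, n = 4 against 4; unadjusted p = 0.0305 and adjusted p = 0.241 by edgeR), and -0.59 without CD54-negative replicate 5. None of 8 tested gp130 cytokine and receptor genes was called by edgeR or limma-voom, nor by DESeq2 among the 6 for which it gave an adjusted p (all but Socs3 and Stat3), and none had an unadjusted edgeR p under 0.05 (median -0.78). Of these, Socs3 and Stat3, the feedback inhibitor and the transcription factor of this pathway, were at 883 ± 943 and 438 ± 96.3 CPM (-1.01 ± 0.63; edgeR adjusted p = 0.447) and at 533 ± 537 and 235 ± 22.4 CPM (-1.18 ± 0.60; edgeR adjusted p = 0.342), means that rested on CD54-negative replicate 5, without which their log2 fold changes were 0.09 and -0.17.

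Of the EGF-family ligands, Hbegf and Areg differed in opposite directions, neither past the threshold. Hbegf (ENSMUSG00000024486) was at 14.4, 37.0, 19.3 and 90.2 CPM in CD54-negative and at 11.9, 11.4, 15.3 and 7.95 CPM in CD54-positive replicates 1, 2, 3 and 5. The lowest CD54-negative library lay just under the highest CD54-positive library, and the other 3 lay above it. The log2 fold change was -1.79 ± 0.66 (SE, n = 4 against 4; unadjusted p = 0.0196 and adjusted p = 0.206 by edgeR), and -1.01 without CD54-negative replicate 5.

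Areg (ENSMUSG00000029378) was close to the detection floor in most CD54-negative libraries, at 0.256, 0.119, 0 and 4.47 CPM in replicates 1, 2, 3 and 5, of which the values of replicates 2 and 3 were under the floor. It was at 4.75, 1.69, 0.290 and 5.41 CPM in CD54-positive replicates 1, 2, 3 and 5. CD54-negative replicate 5 lay within the CD54-positive range. Areg differed by 1.34 on the log2 scale with an SE of 1.56 (edgeR adjusted p = 0.706), and by 4.51 without CD54-negative replicate 5, so its size is not fixed by these libraries.

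Other genes of EGF signalling had mostly negative differences, none past the threshold. None of 11 tested ligands, receptors and sheddases was called by edgeR or limma-voom, nor by DESeq2, which gave no adjusted p for Egf; 1 was lower and none higher at an unadjusted edgeR p under 0.05, and 10 of the 11 were negative (median -1.72). Tgfa, the ligand TGF-alpha, was at 187 ± 118 and 35.4 ± 36.7 CPM (mean ± SD of 4 libraries; log2 fold change -2.40, SE 1.06; edgeR adjusted p = 0.282). Adam17, the sheddase that frees several of these ligands, was at 144 ± 38.1 and 253 ± 54.7 CPM (0.81 ± 0.39; edgeR adjusted p = 0.327), the 1 positive value of the list.

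**Figure D4:**
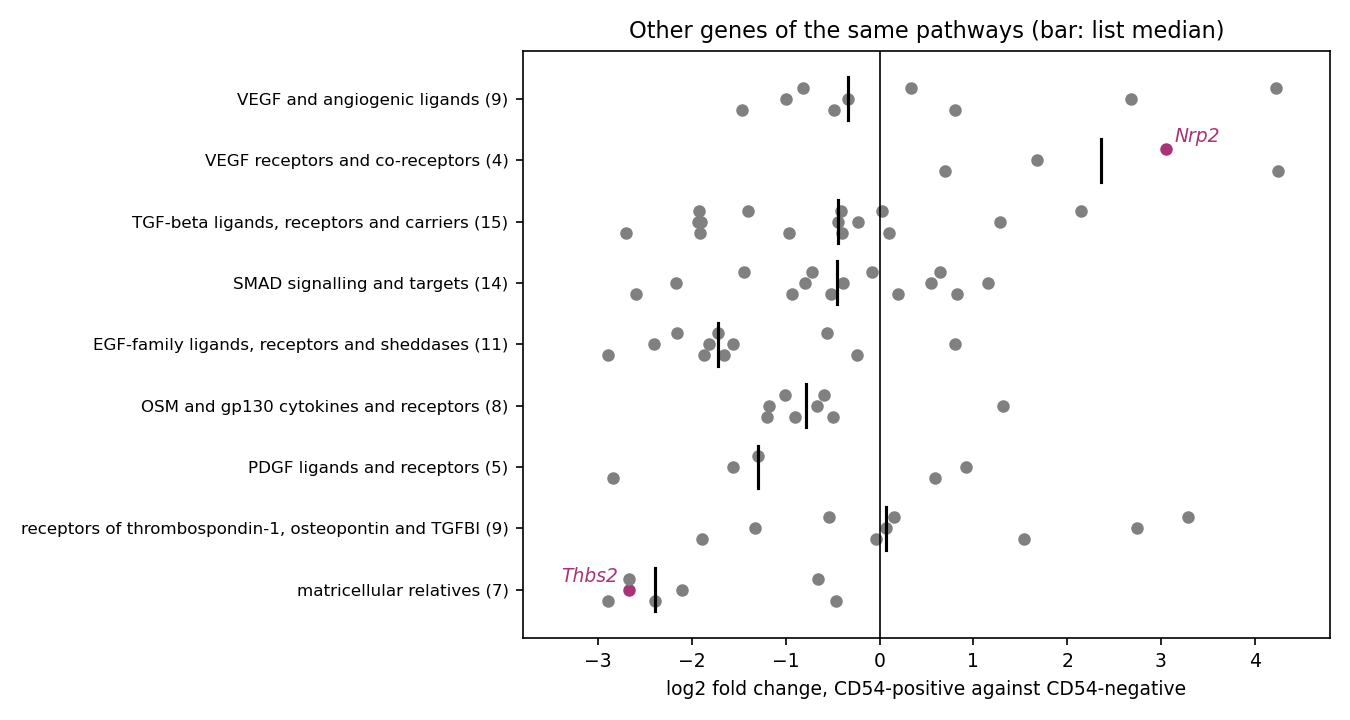
Log2 fold change, CD54-positive against CD54-negative, of each tested gene on 9 lists of ligands, receptors and signalling genes around the secreted factors; the number of tested genes is in brackets, black bars are list medians, and coloured points passed the edgeR threshold. Nrp2 (3.05) and Thbs2 (-2.67) are the 2 coloured points among 82 genes.

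Over all lists together, 82 of 93 genes were tested, 1 rose and 1 fell, and the median was -0.57. At an unadjusted p under 0.05, 10 were higher and 13 lower, of the 82.

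Scaled to gene length as TPM, in which counts are divided by gene length and rescaled to a common total,, Spp1 was the most abundant factor in both groups, with a median of 5844 TPM and a range of 2381 to 7838 TPM in CD54-negative and a median of 1778 TPM and a range of 396 to 5656 TPM in CD54-positive libraries. Tgfbi followed at 266 TPM (145 to 781) in CD54-negative and 612 TPM (523 to 1728) in CD54-positive libraries. In CD54-negative libraries the order went on with Osm (223 TPM), Thbs1 (169), Prok2 (111), Vegfa (108), Tgfb1 (74.8), Hbegf (21.8), Pdgfb (7.09) and Areg (0.321). In CD54-positive libraries the third place was held by Pdgfb at 157 TPM (109 to 226), followed by Osm (133 TPM), Tgfb1 (117), Vegfa (89.3), Thbs1 (63.4), Prok2 (14.6), Hbegf (8.62) and Areg (5.05). Neighbours in this order had overlapping ranges in each group, with these exceptions: Spp1 stood apart from Tgfbi among CD54-negative libraries, and Tgfbi from Pdgfb and Thbs1 from Prok2 among CD54-positive libraries. Pdgfb thus moved from the ninth to the third place and Prok2 from the fifth to the eighth.

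**Figure D5:**
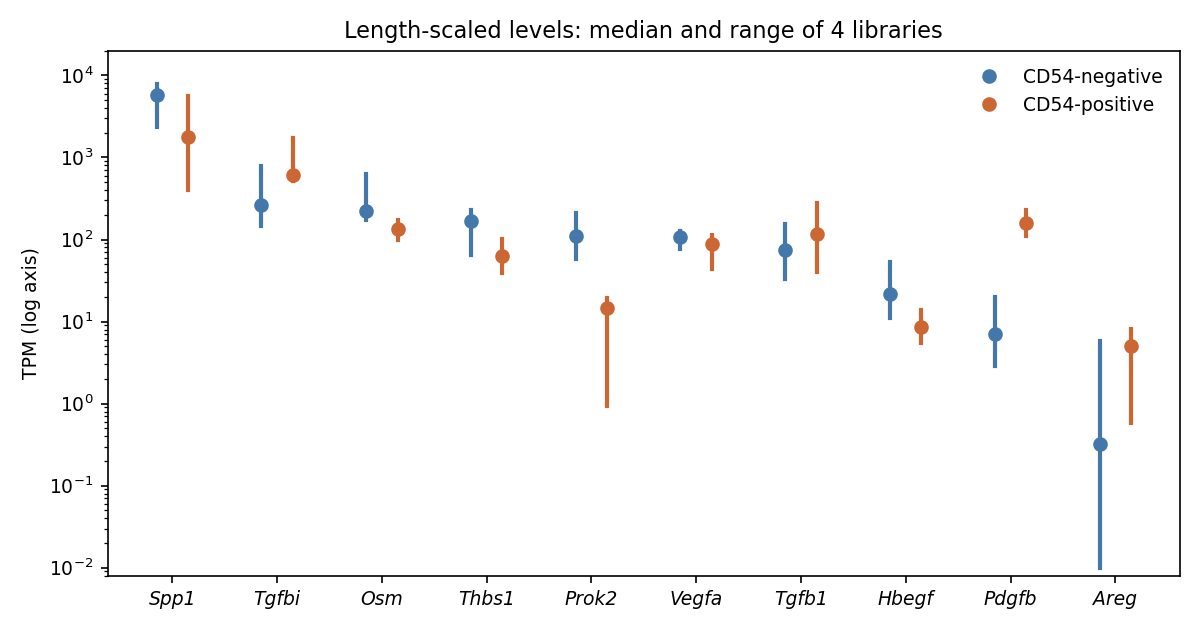
Length-scaled level of each factor as TPM on a log axis: points are medians and lines the range of the 4 libraries of a group, with factors ordered by their CD54-negative median; the Areg line of the CD54-negative group ends at 0, drawn at the foot of the axis. Pdgfb goes from a median of 7.09 to 157 TPM and Prok2 from 111 to 14.6 TPM.

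Within the groups, single libraries set much of the spread of these factors. CD54-negative replicate 5 held the highest level of 7 of the 10 factors among the CD54-negative libraries, and CD54-negative replicate 3 the lowest level of 7. Among CD54-positive libraries, replicate 5 was the highest for 6 factors in all and the lowest for the other 4. Between the highest and lowest CD54-negative library the ratio was 2.12 for Vegfa, 2.48 for Spp1, 6.80 for Pdgfb and 6.91 for Tgfbi. Among the CD54-positive libraries Hbegf varied least, by a ratio of 1.92, Pdgfb by 2.11, Spp1 by 10.8 and Prok2 by 18.5.

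The remaining factors were closest in pattern to genes other than the marker genes of neutrophils and macrophages, with the exception of Areg. The nearest listed genes were Furin and Itga5 for Vegfa (root mean square difference 0.33 and 0.43), Cdh5 and Jak1 for Thbs1 (0.41 and 0.64), and Pdgfrb and Smad3 for Spp1 (0.55 and 0.59). They were Itga5 and Furin for Tgfb1 (0.65 and 0.73), Nrros and Pdgfc for Tgfbi (0.58 and 0.69), Stat3 and Cd44 for Osm (0.35 and 0.37), and Cd44 and Stat3 for Hbegf (0.46 and 0.51). Areg had no close partner, with Pdgfc at 0.90 and the macrophage marker Cd68 at 1.03. Of these nearest genes, Pdgfrb was also on the fibroblast list and Cdh5, at 0.76 to 6.96 CPM, on the endothelial list. Osm and Hbegf shared their nearest genes, and all 4 of these genes were highest of the CD54-negative group in replicate 5.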

How the data were processed

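RNA was measured by sequencing in 8 libraries labelled as sorted mouse tumour neutrophils, 4 per group, grouped by their titles. Per the labels and the submitters' processing notes, Trim Galore 0.6.6, Salmon 1.9.0 and the build GRCm39 (mm39) were used; which annotation and settings is not given in the sources used here. Deposited were, in a single table, estimated counts and a length for each gene. Repeated identifiers were kept once (25572 of 25669 rows), and counts were rounded. Genes were filtered with filterByExpr (13575 kept), scaled by TMM and compared with edgeR 4.0.16 in R 4.3.3 (glmQLFit and glmQLFTest, robust, group as the only term, Benjamini-Hochberg adjusted p under 0.05). The SE is the log2 fold change divided by the square root of F, and 95% intervals use its t quantile. TPM are rounded counts divided by the file's gene length and rescaled to the same sum in every library. Likeness used log2(CPM + 0.25). The edgeR fit was tested on simulated counts, with 50 genes changed at each of 4 sizes. It recovered 0 of 50 at 2-fold, 1 at 4-fold, 11 at 8-fold and 26 at 16-fold, so differences of a few fold would mostly be missed for such genes. The changed genes were drawn at random from all tested genes, whatever their level, so the rates for the factors may differ. The simulation called 40 genes in all, beside 166 higher and 37 lower in the data.

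The factors, pathway and marker lists were chosen with earlier results of these data known. Named were the factors, Icam1, list genes past the threshold and the 2 tested genes of highest mean TPM per list. Pf4, Itga2b, Ppbp, Gp1ba, Cd4, Ly6g, Kdr, Pecam1, Vwf, Kit, Prokr1, Prokr2 and genes named for calls by other tools or as list members were named after their values were seen. Levels per 1000 CPM of markers were added after the values were seen. Of 10 factors, 6 matched the RefSeq promoter table (GRCm38.p6). The alternatives tried comprised upper-quartile or RLE scaling, unscaled library totals, DESeq2 1.42.0, limma-voom (limma 3.58.1) with sample weights, 2 filters (at least 1 count; 10 CPM in 4 libraries), a replicate block, TPM, and leaving out each library or both numbered 5. The median over all genes, -0.07 on the log2 scale, shifted by 0.13 under upper-quartile scaling and by 0.24 under library totals; changes are given relative to TMM. Protein sequences were not used here.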

Additional observations from a re-analysis of the deposited data

Results flagged for a closer look

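In groups of 4 libraries, a value was singled out where its gap to the next library divided by the group's range exceeded Dixon's 95% critical value for 4 values. This held in 14 of 80 groups of values, where chance gives about 1 in 20 for independent, normally distributed values. The CPM were not log-transformed and the groups of values share libraries, so that rate need not hold here. In CD54-negative replicate 5, Osm stood at 950.1 CPM with the next library at 256, Areg at 4.47 with the next at 0.256, Icam1 at 138 with the next at 18.7, Socs3 at 2295 with the next at 482, Stat3 at 1338 with the next at 300.3, and Cd44 at 2458 with the next at 755. The same library was the lowest of its group for Thbs2, at 96 CPM with the next at 186, and the highest for the summed epithelial and mammary tumour markers, at 68.5 CPM with the next at 8.3.

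In CD54-positive replicate 1, Pdgfb stood highest at 325 CPM with the next library at 178, Itgb5 highest at 2174 with the next at 937, and Vegfb lowest at 5.37 with the next at 9.85. Tgfbi was highest in CD54-positive replicate 5, at 2987 CPM with the next at 1090.2. In CD54-negative replicate 2, Vegfd was highest at 80.6 CPM with the next at 26.2, and the summed B cell markers were highest at 144 CPM with the next at 8.16.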

How the results depend on the processing

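The counts of factors called were 1 higher and 0 lower. With DESeq2, limma-voom, no filter, the stricter filter and without both libraries numbered 5 the lower count was 1, which was Prok2; leaving out 1 library gave 0 to 1 higher and 0 to 1 lower. The log2 fold change of Pdgfb stayed between 3.79 and 4.71 over 17 alternatives and passed in 15. Leaving out 1 library, Tgfb1 ran from -0.16 (without CD54-positive replicate 5) to 1.21. Among list genes, Tgfbr2 reversed to -0.02 with RLE scaling, -0.02 with DESeq2, -0.07 with limma-voom, -0.15 without CD54-positive replicate 1 and -0.12 without CD54-negative replicate 5 (highest without 1 library 0.22), Smad4 to 0.10 without both libraries numbered 5 and Socs3 to 0.09 without CD54-negative replicate 5 (lowest without 1 library -1.26). None of these values was past the threshold, and the cause was not tested. The other 9 factors kept their direction in every alternative that tested them; Areg was not tested with the stricter filter or without both libraries numbered 5. List genes called, 1 higher and 1 lower, numbered 3 higher with upper-quartile scaling, 3 with library totals, 6 and 8 with DESeq2, 6 and 7 with limma-voom, 2 and 3 without a filter, 3 and 2 with the stricter filter and 2 and 3 without both libraries numbered 5; leaving out 1 library gave 0 to 3 higher and 0 to 5 lower. Over all genes, 166 higher and 37 lower became 258 higher with library totals, 584 and 649 with DESeq2, 480 and 376 with limma-voom, 120 lower without a filter, 63 lower with the stricter filter and 190 lower without both libraries numbered 5; leaving out 1 library gave 4 to 337 higher and 0 to 241 lower. In TPM no group mean ratio moved by more than the replicate spread.

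With the replicate number as a replicate block, 1 factor was higher and 1 lower (Prok2, log2 fold change -3.66, adjusted p = 0.0299), 2 list genes were higher and 6 lower (Tgfa among them, -3.31, adjusted p = 0.021), and 280 genes were higher and 261 lower. The titles share numbers but do not say that a number marks an animal, and the data left the pairing unsettled. The deviations of same-numbered libraries from their group means correlated at -0.16, 0.12, 0.16 and 0.38 over 13575 genes for replicates 1, 2, 3 and 5. CD54-negative replicates 2, 3 and 5 and CD54-positive replicates 2 and 5 correlated best with their own number. CD54-negative replicate 1 and CD54-positive replicates 1 and 3 did not.

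A spread of 0.858 as biological coefficient of variation and 4 libraries a group limit what can be called, and counts under the floor of 3 limit Areg.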
